A study of Homo sapiens with 6 samples.

Results

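The nuclear messenger RNAs for proteins of the mitochondrial ribosome were taken as every gene whose symbol starts with MRPL or MRPS and a number, and the FPKM of their transcript rows were summed per gene. The rule found 78 genes among the 11593 gene symbols listed, 49 of the MRPL series and 29 of the MRPS series, spread over 192 transcript rows and 21 chromosomes. FPKM are fragments scaled to transcript length and to the mapped total of the library, so levels can be set side by side between genes of different length, while each library is scaled to its own total.

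The mitochondrial ribosome translates the few messenger RNAs encoded by mitochondrial DNA, all of them for subunits of the oxidative phosphorylation complexes. Its rRNAs are made inside the organelle, but its proteins are encoded in the nucleus, translated in the cytosol and imported. MRPL symbols belong in general to the large subunit, which joins amino acids, and MRPS symbols to the small subunit, which reads the codons. Some of the proteins have counterparts in bacterial ribosomes and others are found only in mitochondria. A few symbols mislead: MRPS30 and MRPS18A sit in the large subunit, and MRPS36 is now known as KGD4, a protein of the 2-oxoglutarate dehydrogenase complex.

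The study set out to find messenger RNAs bound by SNHG10, a long noncoding RNA, in SK-Hep1 cells. The 3 libraries of the first group were made with the SNHG10 complete probe set and the 3 of the second with a LacZ control probe set, whose target is a bacterial gene; all 6 are labelled as ChIRP and as coming from 1 cell line, SK-Hep1, given in the labels as hepatocellular carcinoma. In ChIRP, biotinylated antisense probes retrieve an RNA with what is crosslinked to it. The labels' protocol describes Trizol extraction and total RNA libraries and no pull-down step, so whether retrieved or total RNA was sequenced is not settled. The labels do not say that replicates were separate cultures, so each p-value speaks of library-to-library spread alone, possibly technical in origin.

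FPKM totals of the listed transcripts ran between 268794 and 272909 in SNHG10-probe libraries and between 271354 and 277118 in LacZ-probe libraries; the read depth is unknown. Of 9 hepatocyte markers 2 were listed, CPS1 and SERPINA1, with summed levels of 1.04 to 1.72 FPKM in SNHG10-probe libraries and 1.25 to 2.12 FPKM in LacZ-probe libraries. ALB, APOA1, APOB, TTR, HNF4A, TF and FGB were not among the genes listed, nor were the endothelial markers PECAM1, CDH5, VWF, TEK, KDR and TIE1. Of 9 endothelial markers 3 were listed (EGFL7, ENG and ROBO4), with sums of 42.4 to 51.2 FPKM in SNHG10-probe libraries and 46.4 to 61.8 FPKM in LacZ-probe libraries. Within that sum EGFL7 did not overlap, at 8.30, 7.45 and 8.18 FPKM with SNHG10 probes, against 26.0, 18.8 and 14.0 FPKM with LacZ probes (log2 difference -1.16, limma adjusted p = 0.778). Of 5 leukocyte markers only CD14 was listed, at no more than 1.69 FPKM in an SNHG10-probe library and 2.69 FPKM in a LacZ-probe library. Epithelial markers (3 of 5 listed) summed to 1818 to 2070 FPKM in SNHG10-probe libraries and 2007 to 2116 FPKM in LacZ-probe libraries, with KRT8 lower without overlap (log2 difference -0.23, limma adjusted p = 0.885). Mesenchymal markers (5 of 6 listed) summed to 1004 to 1316 FPKM in SNHG10-probe libraries and 1075 to 1665 FPKM in LacZ-probe libraries. The part of these marker levels in any difference below was not tested.

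Mitoribosomal protein mRNAs were of moderate to high abundance among the protein-coding genes listed. The median member had a mean level of 18.3 FPKM over the 6 libraries, with quartiles at 10.7 and 27.2 FPKM, and 69 of the 78 members lay above the median of all listed genes, 6.53 FPKM. There were 38 members at 20 FPKM or more and 19 under 10 FPKM. Among the 77 members that passed the filter on low values, at least 1 FPKM in at least 3 libraries, the highest level was 22.2 times the lowest. One member, MRPL48, did not pass it. The levels were therefore not equal, whereas most of the proteins, MRPL12 apart, occur as single copies in the assembled ribosome.

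MRPL12 was the most abundant member; its protein, the homologue of the bacterial stalk protein, contacts the translation factors on the large subunit. It lies at chr17:79670387-79674556 on the plus strand (hg19). MRPL12 had 79.3, 69.3 and 84.6 FPKM with SNHG10 probes, against 76.7, 52.3 and 63.5 FPKM with LacZ probes. The 2 sets of libraries overlapped. MRPL33, a small protein with a bacterial counterpart, had 90.7, 37.8 and 70.7 FPKM with SNHG10 probes, against 61.9, 58.4 and 56.8 FPKM with LacZ probes. Both the highest and the lowest MRPL33 value came from SNHG10-probe libraries. MRPL37, which is specific to mitochondria, had 42.5, 48.3 and 66.0 FPKM with SNHG10 probes, against 92.1, 61.7 and 48.8 FPKM with LacZ probes. MRPL15, a counterpart of bacterial L15, had 51.0, 51.0 and 47.8 FPKM with SNHG10 probes, against 66.8, 76.0 and 34.5 FPKM with LacZ probes. MRPL51, specific to mitochondria, had 50.2, 35.2 and 60.4 FPKM with SNHG10 probes, against 54.3, 53.1 and 54.5 FPKM with LacZ probes. The ranges of neighbours in this order ran across each other, so the order of the upper members is not set apart by the spread between libraries.

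In the MRPS series the top member was MRPS18B, 1 of the human proteins related to bacterial S18, at 52.4, 54.3 and 51.8 FPKM with SNHG10 probes and 61.2, 48.3 and 46.0 FPKM with LacZ probes. MRPS24, the counterpart of bacterial S3, had 35.7, 72.6 and 33.2 FPKM with SNHG10 probes, against 27.0, 60.6 and 44.5 FPKM with LacZ probes. The number-2 library of each probe set was the high one for MRPS24; hg19 places this gene inside a read-through locus on the same strand, URGCP-MRPS24, with which it shares 3000 bases and whose own rows averaged 0.761 FPKM. MRPS7, a head protein of the small subunit, had 35.1, 35.7 and 37.5 FPKM with SNHG10 probes, against 31.0, 39.5 and 27.3 FPKM with LacZ probes. MRPS2 had 34.2, 35.8 and 24.1 FPKM with SNHG10 probes, against 38.9, 36 and 34.1 FPKM with LacZ probes. All of these overlapped between the probe sets.

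At the low end, MRPL48 was listed at 0 in 5 libraries and at 8.23 FPKM in SNHG10-probe replicate 2. In these files a 0 can be a failed estimate, so no mean or fold is given for it. MRPL1, whose bacterial counterpart forms a mobile stalk beside the exit site, had 3.36, 0.989 and 2.85 FPKM with SNHG10 probes, against 6.17, 2.89 and 3.02 FPKM with LacZ probes. MRPL50 had 5.90, 4.22 and 4.14 FPKM with SNHG10 probes, against 3.62, 1.5 and 4.26 FPKM with LacZ probes. MRPL35 had 7.27, 18.1 and 3.61 FPKM with SNHG10 probes, against 6.02, 3.05 and 6.65 FPKM with LacZ probes. In MRPL35 a single SNHG10-probe library stood above the other 5.

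Among low MRPS members, MRPS11 had 1.65, 7.41 and 2.43 FPKM with SNHG10 probes, against 3.08, 3.31 and 1.32 FPKM with LacZ probes. MRPS9 had 8.11, 2.89 and 3.57 FPKM with SNHG10 probes, against 1.94, 5.53 and 2.87 FPKM with LacZ probes. MRPS25 had 5.03, 4.88 and 3.01 FPKM with SNHG10 probes, against 6.67, 3.92 and 5.96 FPKM with LacZ probes. The low members overlapped between the probe sets, with MRPL57 and MRPS31, described further on, as the exceptions. MRPS36, the 2-oxoglutarate dehydrogenase protein, was among the 5 lowest as well, at 8.97, 3.42 and 4.51 FPKM with SNHG10 probes and 5.0, 3.54 and 8.84 FPKM with LacZ probes.

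**Figure D1:**
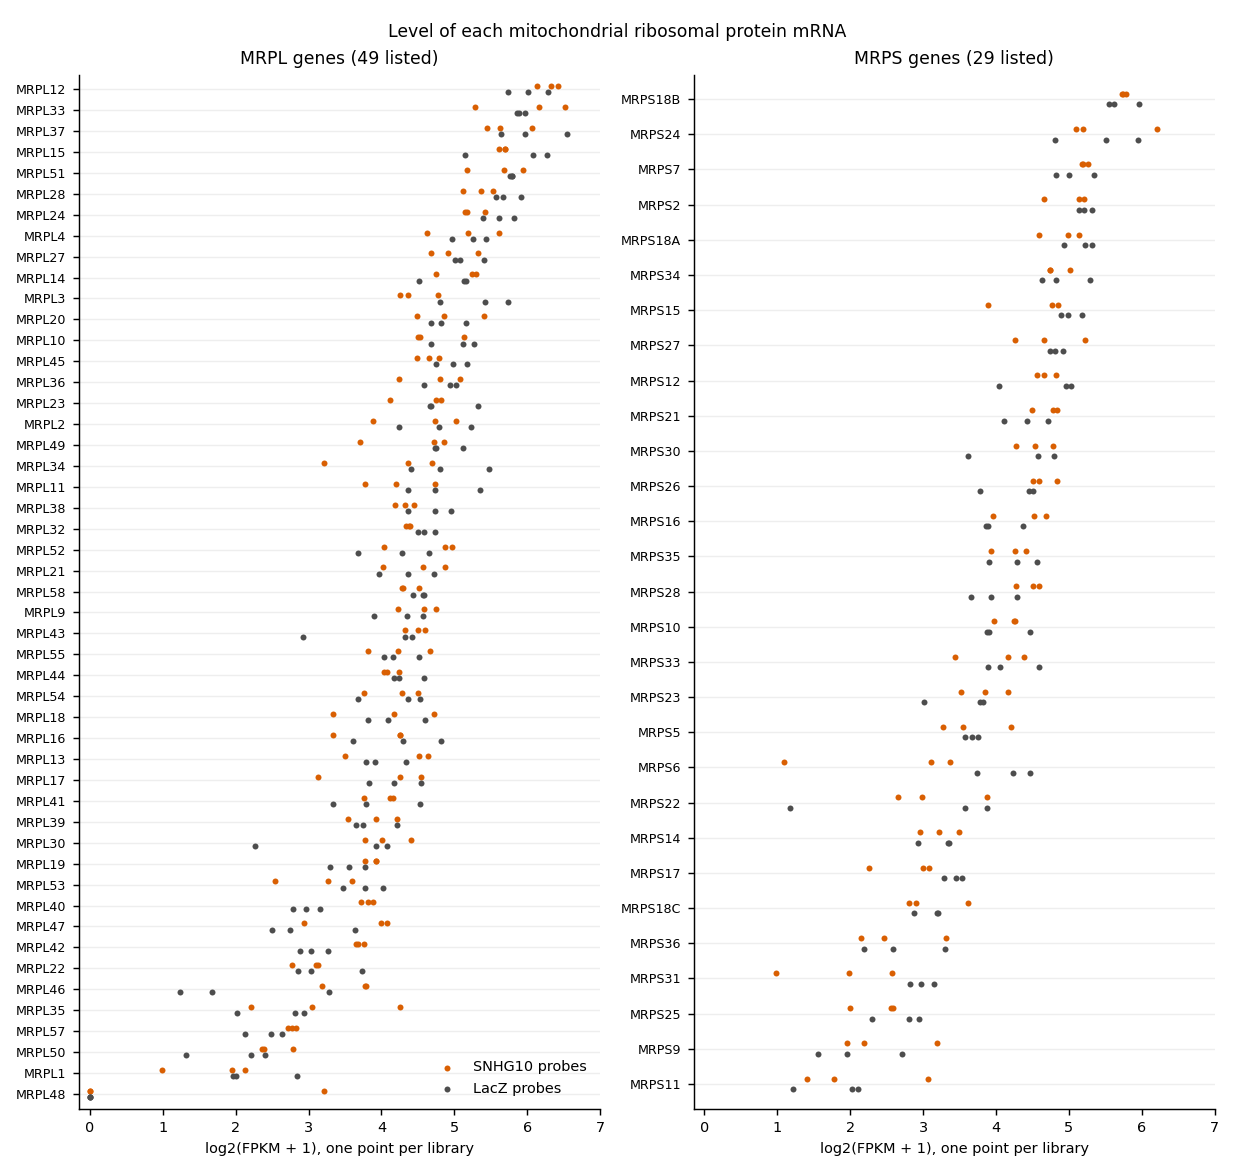
Level of each mitoribosomal protein mRNA as log2(FPKM + 1), with 1 point per library, SNHG10 probes drawn above LacZ probes, MRPL and MRPS series apart and members ordered by mean. Mean levels reach 70.9 FPKM for MRPL12, MRPL48 is above 0 in 1 library, and points of the probe sets are interleaved for most members.

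Proteins with distinct jobs in the ribosome lay between those ends. MRPL10 and MRPL11 form with MRPL12 the stalk and its base. MRPL10 had 21.5, 22.0 and 34.1 FPKM with SNHG10 probes, against 33.7, 24.6 and 37.7 FPKM with LacZ probes. MRPL11 had 12.7, 17.4 and 25.6 FPKM with SNHG10 probes, against 40.0, 25.7 and 19.5 FPKM with LacZ probes. Their levels overlapped with each other, and all lay under every MRPL12 value. MRPL45, which sits by the exit tunnel on the side facing the inner membrane, had 21.3, 24.1 and 26.7 FPKM with SNHG10 probes, against 25.9, 30.5 and 35.0 FPKM with LacZ probes. MRPL44, which has a fold of the RNase III family, had 17.9, 15.4 and 15.9 FPKM with SNHG10 probes, against 23.1, 17.0 and 17.9 FPKM with LacZ probes. MRPL58, a peptidyl-tRNA hydrolase that is also built into the large subunit, had 18.7, 22.0 and 18.4 FPKM with SNHG10 probes, against 22.8, 20.6 and 23.0 FPKM with LacZ probes. Each of these 3 overlapped between the probe sets.

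On the small subunit, MRPS12, part of the decoding centre, had 24.3, 22.6 and 27.4 FPKM with SNHG10 probes, against 30.1, 15.4 and 31.8 FPKM with LacZ probes. MRPS27, a pentatricopeptide repeat protein, had 24.3, 36.4 and 18.2 FPKM with SNHG10 probes, against 27.1, 29.2 and 25.8 FPKM with LacZ probes. MRPS16, a counterpart of bacterial S16, had 24.8, 14.6 and 21.9 FPKM with SNHG10 probes, against 13.5, 19.7 and 13.9 FPKM with LacZ probes. These ranges overlapped too. MRPS34 had 25.7, 31.2 and 25.6 FPKM with SNHG10 probes, against 27.2, 23.9 and 38.2 FPKM with LacZ probes. MRPS22, a protein specific to mitochondria, was lower and more scattered, at 13.7, 5.29 and 6.92 FPKM with SNHG10 probes and 13.7, 10.9 and 1.25 FPKM with LacZ probes. MRPS30, the large-subunit protein with a small-subunit name, had 26.5, 18.3 and 22.2 FPKM with SNHG10 probes, against 11.3, 22.9 and 26.8 FPKM with LacZ probes.

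The 3 human relatives of bacterial S18 take different places, MRPS18A in the large subunit and MRPS18B and MRPS18C in the small one, and their mRNAs differed in level. MRPS18A had 23.1, 30.6 and 34.0 FPKM with SNHG10 probes, against 38.8, 29.6 and 36.1 FPKM with LacZ probes. MRPS18C had 6.0, 6.50 and 11.2 FPKM with SNHG10 probes, against 6.34, 8.09 and 8.17 FPKM with LacZ probes. In every library MRPS18B stood above MRPS18A and MRPS18A above MRPS18C. The ratio of MRPS18B to MRPS18C was 7.24 ± 2.27 in SNHG10-probe libraries and 7.08 ± 2.23 in LacZ-probe libraries (SD, n = 3 each). That of MRPS18B to MRPS18A was 1.86 ± 0.383 in SNHG10-probe libraries and 1.49 ± 0.193 in LacZ-probe libraries.

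The balance of the subunits was next taken as sums and means per library. MRPL mRNAs summed to 1054, 1112 and 1194 FPKM with SNHG10 probes, against 1237, 1216 and 1116 FPKM with LacZ probes. MRPS mRNAs summed to 521, 592 and 524 FPKM with SNHG10 probes, against 539, 548 and 575 FPKM with LacZ probes. Both sums overlapped between the probe sets. All members together held 0.616% ± 0.0265 of the FPKM total in SNHG10-probe libraries and 0.636% ± 0.0119 in LacZ-probe libraries (SD, n = 3 each). The MRPL share was 0.414% ± 0.0227 in SNHG10-probe libraries and 0.434% ± 0.0201 in LacZ-probe libraries. The MRPS share was 0.202% ± 0.0158 in SNHG10-probe libraries and 0.202% ± 0.00851 in LacZ-probe libraries.

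By the mean per member, large-subunit mRNAs were somewhat more abundant than small-subunit mRNAs in every library. The mean per MRPL member over the mean per MRPS member was 1.20, 1.11 and 1.35 with SNHG10 probes, against 1.36, 1.31 and 1.15 with LacZ probes. The ratio averaged 1.22 ± 0.12 in SNHG10-probe libraries and 1.27 ± 0.109 in LacZ-probe libraries (SD, n = 3 each), and the libraries of the probe sets overlapped. Moving MRPS30 and MRPS18A to the large subunit and setting MRPS36 aside gave 1.23 ± 0.140 in SNHG10-probe libraries and 1.29 ± 0.0830 in LacZ-probe libraries. Among members with a bacterial counterpart the ratio was 1.41 ± 0.180 in SNHG10-probe libraries and 1.5 ± 0.144 in LacZ-probe libraries. Taken as a ratio of medians, it was 1.06 ± 0.0565 with SNHG10 probes and 1.35 ± 0.246 with LacZ probes, and at 0.994 it was under 1 in SNHG10-probe replicate 1. By ancestry, the 29 MRPL members with a bacterial counterpart had a median level of 23.9 FPKM and the 20 mitochondria-specific ones 17.8 FPKM, while the 16 and 13 MRPS members had medians of 17.3 FPKM and 18.0 FPKM.

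**Figure D2:**
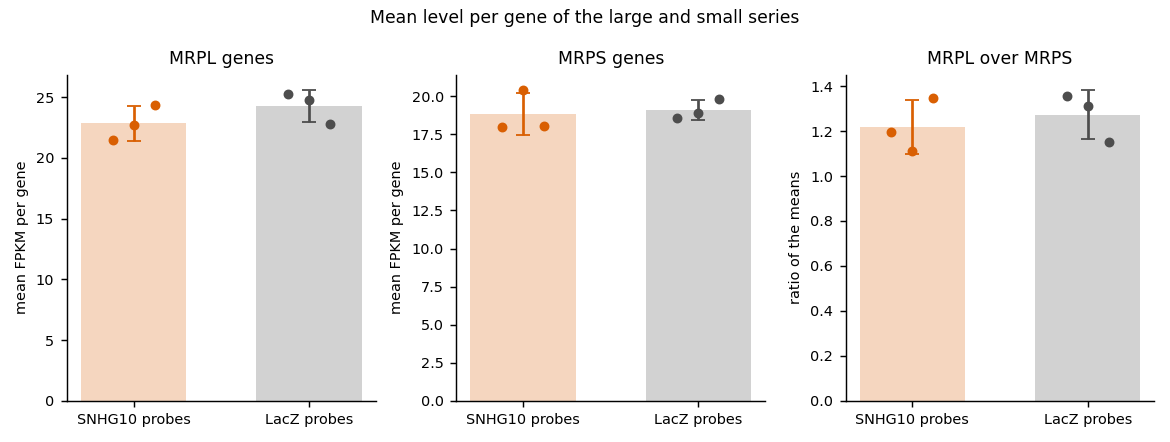
Mean FPKM per MRPL gene (left), per MRPS gene (middle) and their ratio (right), SNHG10 probes left of LacZ probes; bars give the mean of 3 libraries, error bars the SD and points the libraries. All 3 quantities overlap between the probe sets, and every ratio lies above 1.

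The typical MRPL level differed a little more than the sum did. The median over the 49 MRPL members was 18.0, 19.9 and 19.7 FPKM with SNHG10 probes, against 21.9, 21.6 and 20.2 FPKM with LacZ probes, so every SNHG10-probe library lay below every LacZ-probe library. The nearest values, 19.9 and 20.2 FPKM, almost met. The median log2 difference over all genes was below 0 too, at -0.05, and the MRPL medians were not recomputed under other scaling. The spread inside the series, taken as the level at the 90th percentile of MRPL members over that at the 10th, was 5.24, 4.84 and 8.16 with SNHG10 probes, against 9.0, 10.3 and 11.6 with LacZ probes, again without overlap. The same spread among MRPS members was 5.93, 9.64 and 11.5 with SNHG10 probes, against 5.36, 7.05 and 6.84 with LacZ probes, which overlapped. Both MRPL differences were seen among many quantities compared and carry no test. The 5 most abundant MRPL members held 26.4% of the MRPL sum with SNHG10 probes and 25.5% with LacZ probes, and the 5 most abundant MRPS members 35.9% of the MRPS sum with SNHG10 probes and 36.1% with LacZ probes.

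Between the probe sets, no mitoribosomal protein mRNA passed the test. In limma on log2(FPKM + 1), fitted over all 10304 genes tested with Benjamini-Hochberg adjustment, 0 of 77 members were called at 0.05, with adjusted p between 0.864 and 1.00, and the share called over all genes was 0% too. At an unadjusted p under 0.05 there were 6 members, 3 higher and 3 lower with SNHG10 probes, which is 7.79% of the members beside 5.42% of all genes (2.1% higher and 3.32% lower). In 11 members the 3 SNHG10-probe libraries lay all above (4) or all below (7) the 3 LacZ-probe libraries, beside 11.4% of all genes, of which 4.22% above and 7.21% below; 11 of 77 is near that background. The balance turned with the scaling, to 7 above and 4 below under median-ratio scaling (5.69% and 5.34% of all genes) and to 7 above and 5 below under quantile scaling (5.50% and 5.32% of all genes). The median log2 difference, SNHG10 probes minus LacZ probes, was -0.00290 over members and -0.05 over all genes, with 38 members positive and 39 negative. Under median-ratio or quantile scaling the split was 41 positive and 36 negative. Adding 1 before the logarithm makes these differences too small for low genes. All libraries carry the label of the same cell line and the groups differ by probe set. What lies behind a difference between them was not tested.

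Most members differed little: 60 of 77 lay within 0.5 of no difference on that scale, and 3 differed by more than 1. The median SE of a member's difference was 0.279, at 0.255 for members above the median level and 0.321 for those below it. The coefficient of variation among replicates had a median of 24.9% over members with SNHG10 probes and 23.6% with LacZ probes. The low members were thus the less precise. Across members, the mean levels of the probe sets correlated at a Pearson r of 0.912 and a Spearman rho of 0.924; members share the libraries and are not independent, so this is a description over 78 genes. Pairs of SNHG10-probe libraries correlated over the members at a mean Pearson r of 0.807, pairs across the probe sets at 0.812 and pairs of LacZ-probe libraries at 0.867, so SNHG10-probe libraries were no closer to each other than to LacZ-probe libraries.

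**Figure D3:**
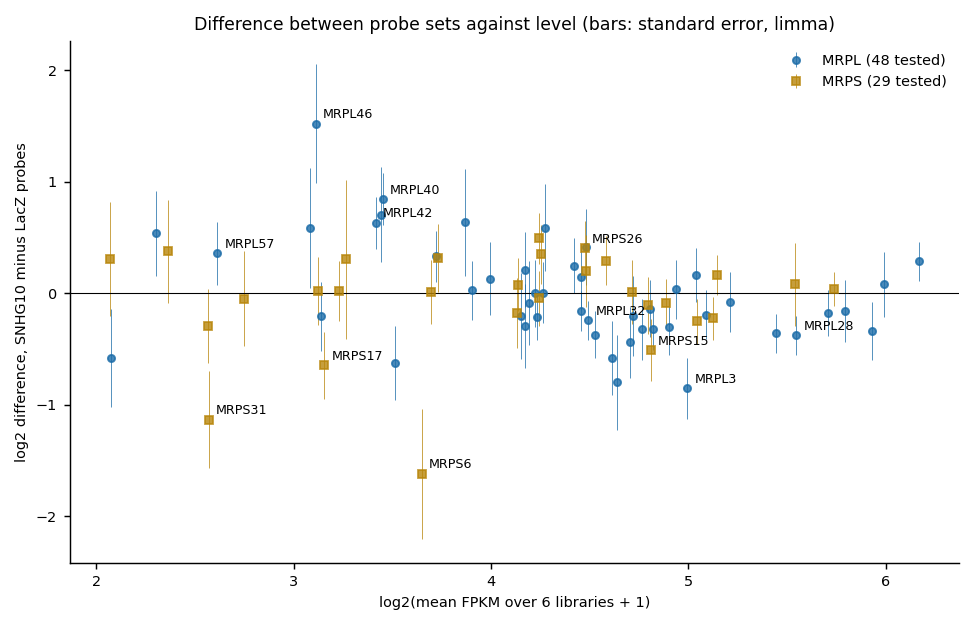
Difference between probe sets for each of the 77 tested mitoribosomal protein mRNAs, SNHG10 probes minus LacZ probes on the log2(FPKM + 1) scale, against log2 of the mean FPKM over 6 libraries plus 1, with bars for 1 SE of the limma fit. Points scatter on both sides of 0, none passes the adjusted threshold, and the members named are those with an unadjusted p under 0.05 or without overlap between the probe sets.

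The 6 members with an unadjusted p under 0.05 are described with the sequence around their annotated start as the few that this cut picked out. After adjustment most of them were no nearer to the threshold than some other members, such as MRPS17 and MRPL28, which share the adjusted p of 0.885. Each sequence is the RefSeq promoter window on GRCh38.p14, 250 bases before the start and 50 after it, read along the gene's strand. Capitals mark CCGGAAG, a core bound by ETS factors such as GABPA, or AAGATGGCG, a core bound by YY1, found on either strand. GABPA and YY1 are known as regulators of many nuclear genes for mitochondrial proteins. A match describes the letters of the window and is not a measured site.

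The 3 members with higher values were MRPL40, MRPL42 and MRPL46, all 3 specific to mitochondria. Their windows are at chr22:19432295-19432594 on the plus strand, chr12:93467264-93467563 on the plus strand and chr15:88467339-88467638 on the minus strand. They differ in which motif they hold, the ETS core in MRPL40 and the YY1 core in MRPL42 and MRPL46.
MRPL40: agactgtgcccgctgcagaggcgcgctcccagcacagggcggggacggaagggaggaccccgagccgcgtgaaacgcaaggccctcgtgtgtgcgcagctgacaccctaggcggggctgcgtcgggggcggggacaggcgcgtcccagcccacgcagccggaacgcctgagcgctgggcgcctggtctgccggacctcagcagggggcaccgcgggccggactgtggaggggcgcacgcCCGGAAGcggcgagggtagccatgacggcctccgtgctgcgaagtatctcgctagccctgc
MRPL42: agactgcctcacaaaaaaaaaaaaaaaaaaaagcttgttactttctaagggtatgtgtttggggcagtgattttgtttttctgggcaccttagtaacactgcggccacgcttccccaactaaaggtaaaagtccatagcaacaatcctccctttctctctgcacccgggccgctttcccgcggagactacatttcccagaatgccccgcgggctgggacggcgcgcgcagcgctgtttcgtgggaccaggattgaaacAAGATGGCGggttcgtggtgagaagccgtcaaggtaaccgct
MRPL46: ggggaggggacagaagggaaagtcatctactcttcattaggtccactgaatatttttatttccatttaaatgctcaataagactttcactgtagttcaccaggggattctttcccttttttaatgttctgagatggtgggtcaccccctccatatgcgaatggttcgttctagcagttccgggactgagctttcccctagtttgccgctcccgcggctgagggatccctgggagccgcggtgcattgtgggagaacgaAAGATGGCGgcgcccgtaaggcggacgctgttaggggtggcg

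MRPL40 (hg19 chr22:19419425-19423598, plus strand) had 12.2, 13.1 and 13.8 FPKM with SNHG10 probes, against 6.80, 7.89 and 5.89 FPKM with LacZ probes. The libraries did not overlap and the replicates lay close together in both sets. The log2 difference was 0.84 ± 0.23 (SE, n = 3 each), with a limma p of 0.00708 before and 0.864 after Benjamini-Hochberg adjustment, the lowest among the members.

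MRPL42 (hg19 chr12:93861264-93909989, plus strand) had 11.5, 12.5 and 11.8 FPKM with SNHG10 probes, against 7.22, 8.64 and 6.37 FPKM with LacZ probes. All SNHG10-probe libraries lay above all LacZ-probe libraries. For MRPL42 the log2 difference was 0.63 ± 0.23 (SE), with a limma adjusted p of 0.885.

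MRPL46 (hg19 chr15:89002707-89010650, minus strand) had 12.8, 12.7 and 8.08 FPKM with SNHG10 probes, against 1.35, 8.75 and 2.19 FPKM with LacZ probes. LacZ-probe replicate 2 lay above SNHG10-probe replicate 3, so the sets overlapped. The log2 difference was 1.52 ± 0.53 (SE), with a limma adjusted p of 0.885. With 1 library left out it ran from 1.10 to 2.13, the highest without LacZ-probe replicate 2 (limma adjusted p = 0.506). Under the other settings it was 0.905 at the lowest. MRPL46 starts back to back with another member, MRPS11, whose annotated start lies 320 bases away in the RefSeq table. In the hg19 spans the starts lie closer, at 89010650 for MRPL46 and 89010684 for MRPS11. MRPS11, given above, overlapped between the probe sets.

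The 3 members with lower values were MRPL3, a counterpart of bacterial L3 near the peptidyl transferase centre, MRPS6, a platform protein of the small subunit, and MRPS31, which is specific to mitochondria. Their windows are at chr3:131502922-131503221 on the minus strand, chr21:34073328-34073627 on the plus strand and chr13:40771141-40771440 on the minus strand. MRPL3 and MRPS31 hold the ETS core, and the MRPS6 window has no match to either motif.
MRPL3: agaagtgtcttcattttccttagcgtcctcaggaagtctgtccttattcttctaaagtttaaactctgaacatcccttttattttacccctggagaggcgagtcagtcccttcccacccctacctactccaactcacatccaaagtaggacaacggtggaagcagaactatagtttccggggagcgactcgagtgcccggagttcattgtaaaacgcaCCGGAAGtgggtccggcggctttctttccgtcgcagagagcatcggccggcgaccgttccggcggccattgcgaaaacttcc
MRPS6: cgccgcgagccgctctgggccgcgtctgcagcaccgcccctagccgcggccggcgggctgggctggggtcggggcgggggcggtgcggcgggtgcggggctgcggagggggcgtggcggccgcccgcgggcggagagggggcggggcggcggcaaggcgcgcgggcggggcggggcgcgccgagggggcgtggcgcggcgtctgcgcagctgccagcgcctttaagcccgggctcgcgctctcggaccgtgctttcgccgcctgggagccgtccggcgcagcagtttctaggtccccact
MRPS31: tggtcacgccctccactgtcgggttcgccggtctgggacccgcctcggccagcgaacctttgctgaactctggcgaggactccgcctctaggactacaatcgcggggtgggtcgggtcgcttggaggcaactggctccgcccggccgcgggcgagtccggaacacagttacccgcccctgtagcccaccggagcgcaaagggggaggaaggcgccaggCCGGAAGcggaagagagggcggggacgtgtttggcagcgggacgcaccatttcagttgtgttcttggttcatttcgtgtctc

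MRPL3 (hg19 chr3:131181056-131221827, minus strand) had 18.2, 19.6 and 26.5 FPKM with SNHG10 probes, against 42.0, 52.2 and 27.0 FPKM with LacZ probes. The sets did not overlap, but SNHG10-probe replicate 3 and LacZ-probe replicate 3 almost met. The log2 difference was -0.85 ± 0.27 (SE), with a limma adjusted p of 0.885.

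MRPS6 (hg19 chr21:35445823-35515334, plus strand) had 7.61, 9.33 and 1.14 FPKM with SNHG10 probes, against 21.1, 17.9 and 12.3 FPKM with LacZ probes. Its gap on the log2 scale was the widest among the tested members, and its lowest value came from SNHG10-probe replicate 3. The log2 difference was -1.62 ± 0.58 (SE), with a limma adjusted p of 0.885, and -0.91 without that library. MRPS6 overlaps SLC5A3 by 32692 bases on the same strand, and SLC5A3 averaged 12.7 FPKM, so reads may be assigned between them.

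MRPS31 (hg19 chr13:41303271-41345309, minus strand) had 4.96, 2.95 and 0.969 FPKM with SNHG10 probes, against 6.87, 6.04 and 7.85 FPKM with LacZ probes. The sets did not overlap at these low levels. The log2 difference was -1.13 ± 0.44 (SE), with a limma adjusted p of 0.885, and -0.70 without SNHG10-probe replicate 3.

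The other members without overlap had unadjusted p-values over 0.05. MRPS26 had 23.0, 21.8 and 27.6 FPKM with SNHG10 probes, against 12.7, 20.8 and 21.7 FPKM with LacZ probes, a log2 difference of 0.40 ± 0.25 (SE; limma adjusted p = 0.928) that was 0.17 without LacZ-probe replicate 1. MRPL57 had 5.81, 5.59 and 6.13 FPKM with SNHG10 probes, against 4.59, 5.23 and 3.38 FPKM with LacZ probes, a log2 difference of 0.36 ± 0.28 (SE; limma adjusted p = 0.928). Both gaps were under 2 SE, and that of MRPL57 was 0.21 without LacZ-probe replicate 3. MRPS17, a counterpart of bacterial S17, had 7.42, 3.80 and 6.98 FPKM with SNHG10 probes, against 8.78, 10.6 and 9.89 FPKM with LacZ probes. The log2 difference of MRPS17 was -0.65 ± 0.30 (SE; limma adjusted p = 0.885), which was -0.39 without SNHG10-probe replicate 2, and the gene shares 3421 bases on the same strand with a second listed gene, AC092647.5. MRPS15 had 13.8, 27.7 and 26.3 FPKM with SNHG10 probes, against 28.6, 30.6 and 35.2 FPKM with LacZ probes. The low value of SNHG10-probe replicate 1 set much of its log2 difference of -0.51 ± 0.28 (SE; limma adjusted p = 0.909), which was -0.21 without that library. MRPL28 and MRPL32 were the remaining members with all SNHG10-probe libraries below, at 33.7 to 45.2 FPKM with SNHG10 probes and 46.4 to 59.2 FPKM with LacZ probes for MRPL28, and 19.1 to 19.9 FPKM with SNHG10 probes and 21.6 to 25.7 FPKM with LacZ probes for MRPL32.

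Over the family, the promoter windows of 69 of the 78 members were found in the RefSeq table. MRPL2, MRPL10, MRPL13, MRPL15, MRPL21, MRPL23, MRPL35, MRPS28 and MRPS36 had no match. CCGGAAG on either strand was found in 29 of the 69 windows (42.0%), beside 20.4% of the windows of the 9057 listed genes found there and 14.2% of 15843 protein-coding windows. AAGATGGCG on either strand was found in 13 windows (18.8%), beside 4.38% of listed genes and 2.74% of all protein-coding windows. The end of the first core and the start of the second share the letters AAG, so matches can overlap, and at least 1 of them was in 38 windows (55.1%), beside 23.8%. On either strand, the NRF1-type palindrome (GCGC, any base, TGCGC) was in 8 windows (11.6%), beside 12.3% of listed genes, CCAAT was in 29.0% beside 36.8%, and TATAAA in 2.90% beside 5.13%. The windows had a GC content of 60.3%, beside 65.7% for all listed genes. The ETS and YY1 cores were held by a larger share of these windows than of the listed genes' windows, while the NRF1-type and TATAAA shares rest on few windows and lie near the background.

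Many of these genes also start back to back with another gene. Of the 69, 20 (29.0%) had a protein-coding start on the opposite strand and pointing away within 1000 bases, beside 16.7% of 9057 listed genes. The nearest by RefSeq starts was MRPL27 with EME1, a DNA repair endonuclease subunit, with 45 bases between the starts. MRPL27 averaged 33.1 FPKM over the 6 libraries and EME1 1.63 FPKM. MRPL49 starts 49 bases from FAU, a cytosolic ribosomal protein gene, and they averaged 25.1 and 139 FPKM. Such partners thus differed in level in both directions. In hg19, 15 members overlap another listed gene, 11 of them on the opposite strand. Whether the counting used strand is not given in the sources used here, so reads in the stretches that such pairs share may not be told apart. The overlaps were taken over whole gene spans. On opposite strands they ranged from 24 bases for MRPL32 with PSMA2 to 10865 bases for MRPL34 with ABHD8. Mitoribosomal protein genes also have many processed pseudogenes, with which reads may be shared.

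At the level of single transcripts, 48 members had at least 2 rows and 30 had 1. Among the 48, the same transcript was the most abundant in all 6 libraries for 23 and changed between libraries for 25. The leading transcript held a median of 71.1% of its gene's FPKM. Of the 192 rows, 99 were above 0 in every library and 70 were at 0 in at least 3 libraries. A good part of the isoform rows was thus listed at 0 in some library. Such a 0 can be a failed estimate, as said for MRPL48.

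MRPL52, a large-subunit protein specific to mitochondria, had the most rows, 10, and its most abundant row held 20.4% of the gene's FPKM, with 4 different rows leading in 1 library or another. MRPL55, also specific to mitochondria, had 7 rows, of which 3 led in some library. MRPL3 and MRPS28 had 6 rows each. In MRPS28 the leading row held 67.6% of the FPKM. The next 6 members, MRPL27, MRPL28, MRPL51, MRPS7, MRPS22 and MRPS33, were tied at 5 rows, and their leading row held 34.7% of the FPKM (MRPS22) to 80.6% (MRPL27). MRPL3 shows how little the split between rows repeats: MRPL3-201 had 12.9, 14.3 and 0.137 FPKM with SNHG10 probes, against 41.5, 0.236 and 14.2 FPKM with LacZ probes. MRPL3-202 had 5.26, 1.58 and 14.7 FPKM with SNHG10 probes, against 0.472, 28.8 and 0 FPKM with LacZ probes. Where 1 row was near 0 another was high, within both probe sets.

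**Figure D4:**
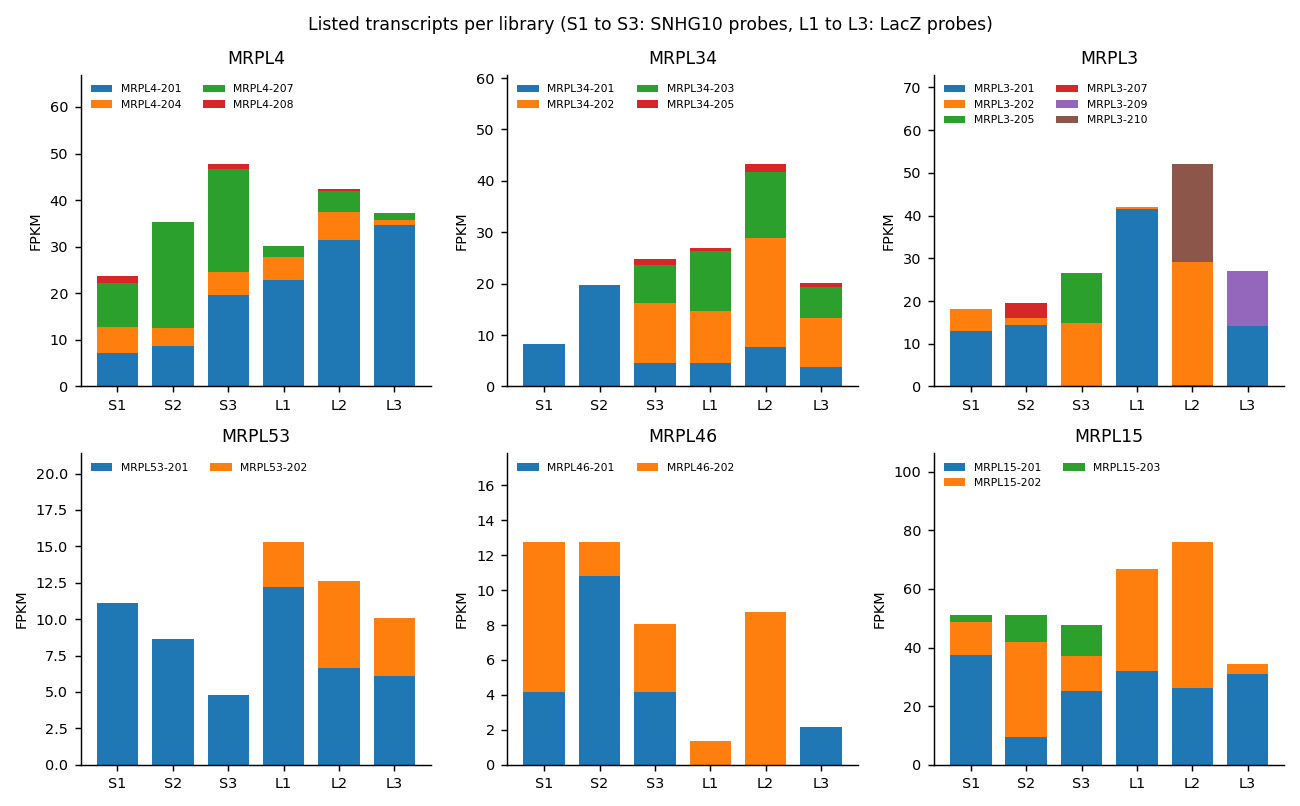
FPKM of the transcript rows of 6 members, stacked per library, with the 3 SNHG10-probe libraries (S1 to S3) left of the 3 LacZ-probe libraries (L1 to L3) and each colour a row. In MRPL4 the row MRPL4-207 takes more than MRPL4-201 in all 3 SNHG10-probe libraries and less in all 3 LacZ-probe libraries, while in MRPL3 the leading row changes between replicates.

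No transcript row of a member passed limma with Benjamini-Hochberg adjustment, 0 of 129 tested, while 0.0903% of all 16618 rows did (0.0481% higher and 0.0421% lower). At an unadjusted p under 0.05 there were 12 member rows, 7 higher and 5 lower, beside 5.66% of all rows (2.59% higher and 3.06% lower). The libraries were separated in 20 member rows, 12 higher and 8 lower, beside 10.5% of all rows, of which 4.48% higher and 6.06% lower. Here 20 of 129 is above that background, but the rows of a gene trade reads with each other and are not independent. Rows at 0 throughout 1 probe set entered these counts, for members and for all rows, only through the other probe set.

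A split between rows that differed between the probe sets without overlap was seen in MRPL4, a counterpart of bacterial L4 (hg19 chr19:10362643-10370721, plus strand, for MRPL4-201). MRPL4-207 had 9.46, 22.8 and 22.1 FPKM with SNHG10 probes, against 2.33, 4.49 and 1.45 FPKM with LacZ probes. MRPL4-201 had 7.17, 8.74 and 19.6 FPKM with SNHG10 probes, against 22.8, 31.5 and 34.7 FPKM with LacZ probes. The ratio of MRPL4-207 to MRPL4-201 was above 1 in every SNHG10-probe library (1.32, 2.60 and 1.13) and far below 1 in every LacZ-probe library (0.102, 0.142 and 0.0419). The log2 difference was 2.34 ± 0.49 (SE; limma adjusted p = 0.264) for MRPL4-207 and -1.36 ± 0.40 (SE; limma adjusted p = 0.580) for MRPL4-201, so neither passed. The gene sum overlapped, at 35.6 ± 12.1 FPKM in SNHG10-probe libraries and 36.6 ± 6.05 FPKM in LacZ-probe libraries (SD, n = 3 each). MRPL4-201 and MRPL4-207 were picked out among the rows by their p-values, and the ratio carries no test.

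Other rows were listed at 0 throughout 1 probe set. MRPL53-202 was listed at 0 in all SNHG10-probe libraries, against 3.06, 5.97 and 3.98 FPKM with LacZ probes (limma adjusted p = 0.159). MRPL52-216 had 3.56, 2.43 and 2.94 FPKM with SNHG10 probes but stood at 0 in each LacZ-probe library (limma adjusted p = 0.185). MRPL15-203 had 2.19, 9.20 and 10.7 FPKM with SNHG10 probes but stood at 0 in each LacZ-probe library (limma adjusted p = 0.264). In all, 5 of the 192 member rows were at 0 in each LacZ-probe library and above 0 in each SNHG10-probe library, and 1 row was the other way round. That is 3.13% of the member rows, beside 1.23% of all 28768 rows, and rows of 1 gene are not independent. MRPL53-202, MRPL52-216 and MRPL15-203 passed the filter only through the probe set in which they were above 0. Their adjusted p-values depend on that contrast and are given as description. The fit took each 0 as a level of 0, though it can be a failed estimate. The gene sums of MRPL53, MRPL52 and MRPL15 overlapped between the probe sets.

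The remaining rows with an unadjusted p under 0.05 were weaker. MRPL46-201 had 4.15, 10.8 and 4.15 FPKM with SNHG10 probes but stood at 0 in 2 LacZ-probe libraries and at 2.19 FPKM in the third (limma adjusted p = 0.602). MRPL20-203 had 2.67, 4.35 and 6.61 FPKM with SNHG10 probes, against 1.83, 0.106 and 0.773 FPKM with LacZ probes (limma adjusted p = 0.763). MRPL42-204 had 8.54, 9.86 and 9.38 FPKM with SNHG10 probes, against 3.80, 6.26 and 3.73 FPKM with LacZ probes (limma adjusted p = 0.792), and carried most of the MRPL42 difference. MRPL34-203 was listed at 0 in 2 SNHG10-probe libraries and at 7.34 FPKM in the third, against 11.6, 12.8 and 6.16 FPKM with LacZ probes (limma adjusted p = 0.842). MRPL34 lies over ABHD8 on the opposite strand, sharing 10865 bases. MRPS17-201 had 5.35, 3.80 and 6.98 FPKM with SNHG10 probes, against 8.78, 10.6 and 9.89 FPKM with LacZ probes (limma adjusted p = 0.859). MRPL40-201 and MRPS6-201 are the only rows of their genes, and their values are those given above.

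The partners of these proteins did not pass the test either. Of 5 mitoribosome proteins listed without an MRP symbol, 0 were called, with 1 positive difference and 4 negative ones. DAP3, a GTP-binding protein of the small subunit, had 25.6, 34.8 and 28.8 FPKM with SNHG10 probes, against 36.3, 44.1 and 35.2 FPKM with LacZ probes, a log2 difference of -0.37 ± 0.18 (SE; limma adjusted p = 0.885). GADD45GIP1, a large-subunit protein, had 10.2, 23.4 and 17.9 FPKM with SNHG10 probes, against 25, 23.7 and 18.5 FPKM with LacZ probes. CHCHD1, a small-subunit protein, had 15.7, 16.3 and 17.3 FPKM with SNHG10 probes, against 14.1, 15.5 and 10.6 FPKM with LacZ probes. DAP3 and CHCHD1 were separated between the probe sets in opposite directions, and GADD45GIP1 overlapped.

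Of 24 assembly factors listed 22 were tested, and 0 were called, with 6 positive and 16 negative differences and a median log2 difference of -0.10, beside -0.05 for all genes. RBFA, which helps to mature the small-subunit rRNA, had 7.20, 2.99 and 2.26 FPKM with SNHG10 probes, against 7.38, 11.3 and 13.6 FPKM with LacZ probes, a log2 difference of -1.28 ± 0.42 (SE; limma adjusted p = 0.885). It was separated by a narrow margin between the first replicates. NGRN, needed for the large-subunit rRNA, had 0.125, 1.04 and 0.220 FPKM with SNHG10 probes, against 1.5, 1.10 and 2.45 FPKM with LacZ probes. DHX30, an RNA helicase of the same assembly path, had 12.5, 17.2 and 18.4 FPKM with SNHG10 probes, against 23.8, 19.2 and 20.8 FPKM with LacZ probes. NGRN and DHX30 did not overlap between the probe sets, with limma adjusted p of 0.885 and 0.910. NGRN lay near the floor, and its log2 difference ran from -1.96 to -0.29 over the other settings that kept all libraries.

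Of 16 mitochondrial translation factors 0 were called, with 8 positive and 8 negative differences. MTIF2, the initiation factor, had 18.0, 17.5 and 11.2 FPKM with SNHG10 probes, against 9.88, 6.85 and 13.7 FPKM with LacZ probes, which overlapped. GFM2, a ribosome recycling factor, had 9.81, 9.93 and 7.04 FPKM with SNHG10 probes, against 10.2, 18.6 and 12 FPKM with LacZ probes. MTFMT, which formylates the initiator methionyl-tRNA, had 1.07, 1.15 and 2.82 FPKM with SNHG10 probes, against 0.981, 0.407 and 0.425 FPKM with LacZ probes. GFM2 and MTFMT were separated in opposite directions, with limma adjusted p of 0.911 and 0.928. MTFMT passed the filter only through the SNHG10-probe libraries, where it was higher. Its separation and adjusted p depend on that contrast and are given as description.

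The templates that mitoribosomes read were far more abundant. The 13 mitochondrially encoded mRNAs averaged 2912 ± 19.9 FPKM per gene in SNHG10-probe libraries and 2786 ± 96.2 FPKM in LacZ-probe libraries (SD, n = 3 each), without overlap. MRPL members averaged 22.9 ± 1.44 FPKM in SNHG10-probe libraries and 24.3 ± 1.31 FPKM in LacZ-probe libraries, and MRPS members 18.8 ± 1.38 FPKM in SNHG10-probe libraries and 19.1 ± 0.636 FPKM in LacZ-probe libraries. Of the 13, 0 were called, 10 were positive and 3 negative, beside 4458 positive and 5846 negative over all genes tested. The 13 share the libraries and are not independent, and their mean carries no test. MT-ND3, a complex I subunit, had the lowest limma adjusted p of the 13, 0.584, at a log2 difference of 0.34 ± 0.06 (SE). MT-ND2, also of complex I, had 1490, 1509 and 1503 FPKM with SNHG10 probes, against 1370, 1327 and 1328 FPKM with LacZ probes (limma adjusted p = 0.885). MT-ND4L had a log2 difference of 0.14 at a limma adjusted p of 0.885.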

How the data were processed

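RNA was measured in 3 SNHG10-probe and 3 LacZ-probe libraries of SK-Hep1 cells, grouped by the labels. Each deposited file gives, per the file headers, FPKM for single transcripts. The submitters' processing notes name Bowtie2 2.1.0 and hg19; the estimator of FPKM is not given in the sources used here, and depth is unknown, so no counting interval was computed.

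FPKM were summed per gene symbol. Genes and transcript rows reaching 1 FPKM in at least 3 libraries entered a fit over the whole table with limma 3.58.1 in R 4.3.3 (eBayes with trend) on log2(FPKM + 1), a pseudocount of 1, with Benjamini-Hochberg adjustment at 0.05. The fit was run on simulated data as a check of the code, which does not give its power for these libraries. Values per library were tabulated with pandas 2.3.3. The members, lists, tests and naming rule were chosen with earlier results of these data known.

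Named were the 5 highest and 5 lowest members of each symbol series, members and rows with an unadjusted p under 0.05, up to 5 separated members per direction, proteins with distinct roles, the members with most rows (the fifth place was a tie of 6, all named), and the 3 smallest p-values of each list. MRPL28 and MRPL32 were added after their values were seen. Members counted as having a bacterial counterpart were MRPL numbers up to 36 and MRPL47, and MRPS numbers up to 21 (without MRPS18A and MRPS18B), MRPS24 and MRPS28.

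Deviations of same-numbered libraries from their probe-set means correlated at 0.0121 to 0.0161 over 10304 genes, under 0.1, so replicate numbers were not taken to pair libraries. Settings tried beside these were pseudocounts of 0.1 and 5, no filter or 5 FPKM, a replicate block, median-ratio or quantile scaling, limma robust or without trend, and leaving out each library. Promoter windows came from RefSeq, GRCh38.p14, matched by symbol, apart from the hg19 coordinates of the files.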

Additional observations from a re-analysis of the deposited data

How the results depend on the processing

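No mitoribosomal protein gene passed limma's adjusted threshold under any alternative run. The lowest limma adjusted p over the named members was 0.506 (MRPL46, without LacZ-probe replicate 2), and over their transcript rows 0.0616 (MRPL53-202, without trend). MRPL53-202 was at 0 in every SNHG10-probe library and entered the fit only through the LacZ-probe libraries. All 491 alternative log2 values of the 34 named differences kept their direction and side of the threshold. The 34 were chosen in these data by small p-values or lack of overlap, so a kept direction was in part fixed beforehand. Runs in which a row fell under the filter hold no value. MRPL53-202, MRPL15-203, MRPL52-216 and the gene MTFMT had values in 11 alternatives, where MRPL4-207 had 15. Over all genes, 0 to 1 were called higher and 0 to 1 lower with 1 library left out. With the replicate block, 0 of the 77 members were called, and 2 had an unadjusted p under 0.05 with higher and 3 with lower values. Over all 10304 genes of that run, 228 were higher and 334 lower at the same cut.

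Leaving out 1 library gave 1 to 3 of the 77 members higher and 1 to 5 lower at an unadjusted p under 0.05. Over all genes, 180 to 240 were higher and 248 to 366 lower at that cut, of 10044 to 10078 tested. Members without overlap numbered 8 to 11 higher and 9 to 15 lower in these runs. The background was 7.67% to 8.74% of all genes higher and 12.6% to 13.5% lower, a looser criterion with 5 libraries. Without overlap there were 7 members higher under median-ratio and 7 under quantile scaling, and 4 lower under median-ratio scaling; all genes moved likewise, from 435 higher and 743 lower to 585 and 549 under median-ratio and 567 and 548 under quantile scaling. Over all transcript rows, 8 higher and 7 lower calls became 0 and 0 with the replicate block, 3 and 3 with no filter, 3 and 3 at 5 FPKM, 26 and 27 without trend, 3 and 2 with a pseudocount of 0.1, 3 and 2 with a pseudocount of 5, and 0 to 0 with 1 library left out. Member rows at an unadjusted p under 0.05 numbered 3 of 87 higher at 5 FPKM, beside 201 of all 8331 rows. With the replicate block 3 of 129 member rows were lower, beside 446 of all 16618 rows. With 1 library left out, 4 to 7 member rows were higher and 1 to 8 lower, of 118 to 120 tested. Over all rows, 258 to 493 were higher and 306 to 599 lower, of 14949 to 15119 tested. Separated member rows numbered 5 higher at 5 FPKM (4.43% of all rows), and 15 to 17 higher and 13 to 20 lower with 1 library left out, beside 8.44% to 9.30% and 11.4% to 12% of all rows.

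Counting the most abundant row per member gave MRPL sums of 856 FPKM with SNHG10 probes and 947 FPKM with LacZ probes (shares 0.317% with SNHG10 and 0.345% with LacZ probes), and MRPS sums of 437 FPKM with SNHG10 probes and 463 FPKM with LacZ probes (shares 0.162% with SNHG10 and 0.169% with LacZ probes). In place of sums, MRPL medians were 19.2 FPKM with SNHG10 and 21.2 FPKM with LacZ probes, and MRPS medians 18.1 FPKM with SNHG10 and 16 FPKM with LacZ probes. By placement the small-subunit sum was 488 FPKM with SNHG10 and 493 FPKM with LacZ probes, its share 0.181% with SNHG10 and 0.180% with LacZ probes, and the large-subunit share 0.454% with LacZ probes. Without the 10 most abundant genes, MRPL shares were 0.480% with SNHG10 and 0.499% with LacZ probes, and MRPS shares 0.234% with SNHG10 and 0.232% with LacZ probes. Median-ratio scaling gave an MRPS sum of 532 FPKM with LacZ probes. Without that scaling the sums were 546 FPKM with SNHG10 and 554 FPKM with LacZ probes. Which probe set has the higher MRPS sum may thus depend on the scaling. Where 1 probe set alone is given, the other moved by less than its SD in the main setting. The MRPL to MRPS ratio was 1.06 from medians with SNHG10 probes, and 1.41 with SNHG10 and 1.5 with LacZ probes among members with a bacterial counterpart. These alternatives change what is summed or tested; other causes were not tested. Low members had the larger errors, and the depth behind them is unknown.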
